A study of Mus musculus with 6 samples.

Results

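Rgn encodes regucalcin, also called SMP30 or gluconolactonase (GNL), and is the gene inactivated in the knockout mice of this study. It is described here together with Gulo, Akr1a1, Ugdh and Ugp2, which encode the other enzymes of hepatic ascorbic acid (AA, vitamin C) synthesis treated here. The members were chosen by name, not by their values, though earlier results of these data were known. All 5 had 1 probe set of their own, among 19550 genes that carried a single symbol and a value.

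Mice make AA in the liver from glucose, whereas humans lack a working gulonolactone oxidase and depend on the diet. Ugp2 makes UDP-glucose, Ugdh oxidises it to UDP-glucuronate, and Akr1a1 reduces the glucuronate released from it to L-gulonate. Regucalcin closes L-gulonate to its lactone, and Gulo oxidises the lactone in the final step. Regucalcin is an abundant hepatocyte protein that declines with age in rodents and also binds calcium.

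Liver RNA of male mice of the C57BL/6NCrSlc background was measured on 6 single-colour oligonucleotide arrays, 2 in each of 3 groups. All mice ate a diet without AA (CL-2). The AA-deficient group was SMP30/GNL KO with no AA supply. The AA-supplemented group was SMP30/GNL KO that drank water with AA, stabilised with EDTA, in an amount sufficient for normal tissue AA per the labels' protocols. The wild-type group carried the intact gene and was deprived of dietary vitamin C, so its AA came from its own synthesis. The labels do not say whether the AA-deficient and wild-type mice also received EDTA, how old the mice were, or which part of Rgn was deleted, so how the Rgn probes lie relative to the deletion is not known here. The arrays of a group are labelled as separate samples, and nothing says that they came from separate animals, so the p-values measure the spread between these arrays, which may be technical.

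The deposited values ran from -0.58 to 2.51 and are read as log10, since that span would be 8.48-fold on a log2 reading and 1213-fold on a log10 reading. Differences are therefore given in deposited log units, and each fold holds on the log10 reading. The 10 hepatocyte markers examined (among them Alb, Ttr and Hnf4a) all had values, with means between 2.10 and 2.26 on the 6 arrays. Arrays of one group correlated at 0.965 to 0.975 over all probe sets, and arrays of different groups at 0.945 to 0.974. Differences were tested with limma over 14662 genes, with p-values adjusted by the Benjamini-Hochberg method and a threshold of 0.05.

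Rgn (Entrez 19733, probe set 10598863, X chromosome) had a low signal in both knockout groups and a high one in wild type. In wild type its value was 2.07 on array 1 and 2.0 on array 2. It was 0.34 and 0.14 in AA-supplemented knockouts, and 0.23 and 0.30 on the AA-deficient arrays. Both wild-type arrays thus stood far above all 4 knockout arrays, and the knockout groups overlapped each other.

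Against wild type, Rgn fell by 1.79 in AA-supplemented knockouts (SE 0.068, limma adjusted p = 8.11e-05), a 62.1-fold ratio of signals. Without AA it fell by 1.77 (SE 0.068, limma adjusted p = 8.98e-05), a 58.9-fold ratio of signals. Both comparisons use the same wild-type arrays. The knockout means of 0.24 and 0.26 lay inside the range of 868 olfactory receptor genes, a family with little liver expression that was brought in after the data were seen. The middle 90% of these genes lay between -0.19 and 0.56 in AA-supplemented and between -0.20 and 0.51 in AA-deficient knockouts, and 27.9% and 23.5% of them were above Rgn. In wild type 0% were above it. Probe sets differ in affinity, so this range is no detection limit. The knockout signal cannot be told from background, and the ratios are of array signal and do not measure how much Rgn transcript was left.

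Between the knockout groups, which share the inactivated gene and differ in AA supply, Rgn differed by 0.023 (SE 0.068, limma adjusted p = 0.963). Both means lay in the range of the olfactory receptor genes, so this difference says nothing about whether Rgn transcript changes with AA supply, and the knockout groups have no order.

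**Figure D1:**
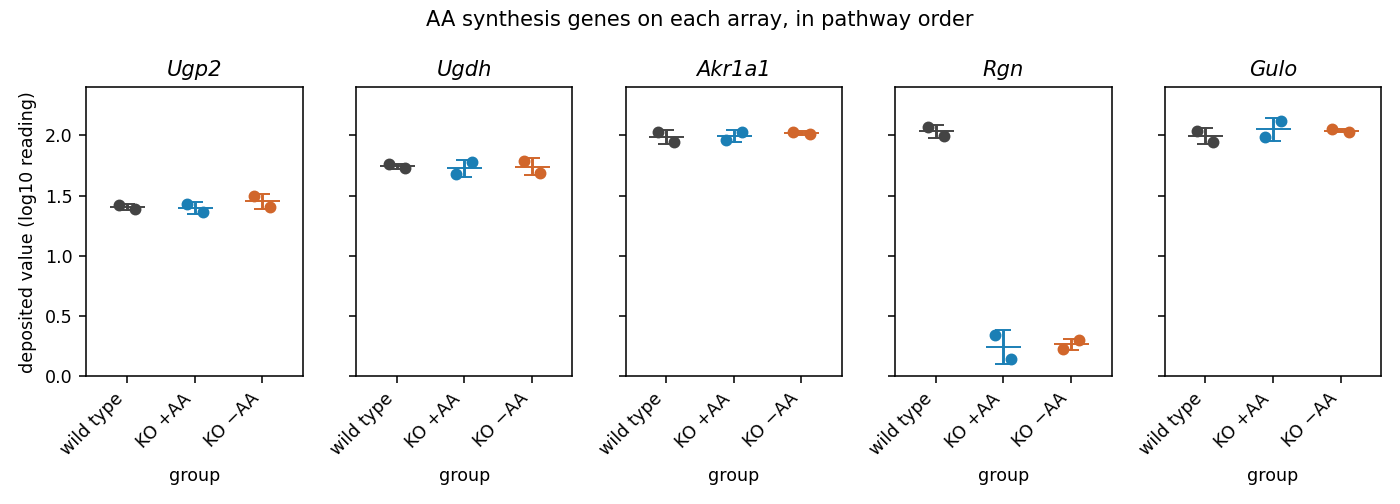
Deposited value (log10 reading) on the vertical axis by group for the 5 genes in pathway order, with a point for each array, a horizontal dash for the group mean and bars for its SD (n = 2). KO +AA stands for AA-supplemented and KO −AA for AA-deficient knockouts. Rgn drops from a mean of 2.03 in wild type to 0.24 and 0.26 in the knockouts, and the other genes overlap across groups.

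Rgn ranked 1 by absolute difference and 1 by p-value among the genes tested in both comparisons with wild type. In AA-supplemented knockouts it was the 1 gene past the threshold, which is 0.00682% of those tested, and the next smallest adjusted p was 0.106. The next largest difference there was 0.69 (SE 0.168, limma adjusted p = 0.225) for Sult1e1, the estrogen sulfotransferase. Without AA-supplemented array 1 the Sult1e1 difference was 1.01 (adjusted p = 0.00422), and without array 2 it was 0.37 (adjusted p = 0.211). In AA-deficient knockouts 4.63% of genes passed in either direction and 1.55% were lower. The next largest difference was -0.91 (SE 0.077, limma adjusted p = 0.0040) for Nrg4, a ligand of ErbB receptors. Without wild-type array 1 the adjusted p of Nrg4 was 0.0695, and without array 2 it was 0.0620. Of the 5 members, 1 passed in each comparison with wild type and 0 passed between the knockouts in limma, where 0 also had an unadjusted p under 0.05. Between the knockouts 0.205% of all genes tested passed, and 9.92% had an unadjusted p under 0.05. That unadjusted share was 20.4% in AA-deficient and 10.6% in AA-supplemented knockouts against wild type.

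Gulo (Entrez 268756, probe set 10420899, chromosome 14), the oxidase that acts directly on the product of regucalcin, kept a high signal in every group. It was at 2.04 and 1.95 on the wild-type arrays, at 1.98 and 2.12 on the AA-supplemented arrays and at 2.05 and 2.03 on the AA-deficient arrays. The highest and the lowest wild-type and AA-supplemented values were interleaved, and the AA-deficient pair lay inside the AA-supplemented range.

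The Gulo difference from wild type was 0.056 (SE 0.057, limma adjusted p = 0.786) with AA and 0.045 (SE 0.057, limma adjusted p = 0.727) without AA. These are 1.14-fold (95% confidence interval 0.841 to 1.54) and 1.11-fold (interval 0.820 to 1.5). Between AA-deficient and AA-supplemented knockouts the difference was -0.011 (SE 0.057, limma adjusted p = 0.982), with an interval of 0.720-fold to 1.32-fold. The bounds leave room for changes of that size and lie far from the ratio seen for Rgn.

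Akr1a1 (Entrez 58810, probe set 10515352, chromosome 4) encodes aldehyde reductase, the aldo-keto reductase one step before regucalcin. Its values were 2.03 and 1.95 in wild type, 1.96 and 2.03 in AA-supplemented knockouts and 2.03 and 2.01 in AA-deficient knockouts. Every pair of groups overlapped. The difference from wild type was 0.0082 (SE 0.048, limma adjusted p = 0.975) with AA and 0.033 (SE 0.048, limma adjusted p = 0.763) without AA. Between the knockouts it was 0.025 (limma adjusted p = 0.935), or 1.06-fold, with an interval of 0.822 to 1.36.

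Ugdh (Entrez 22235, probe set 10530201, chromosome 5) encodes UDP-glucose dehydrogenase, which supplies UDP-glucuronate both to AA synthesis and to drug and bilirubin conjugation. It was at 1.76 and 1.73 in wild type, at 1.68 and 1.78 in AA-supplemented knockouts and at 1.79 and 1.69 in AA-deficient knockouts. Each knockout pair spanned both wild-type values. The difference between AA-deficient knockouts and wild type was -0.0045 (SE 0.052, limma adjusted p = 0.974), and 95.9% of genes tested had a larger absolute difference. It was -0.017 (limma adjusted p = 0.944) for AA-supplemented knockouts against wild type and 0.012 (limma adjusted p = 0.978) between the knockouts. The 3 intervals together ran from 0.728-fold to 1.36-fold.

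Ugp2 (Entrez 216558, probe set 10384579, chromosome 11) encodes UDP-glucose pyrophosphorylase, which serves glycogen synthesis as well as this route. It was at 1.42 and 1.39 in wild type, at 1.43 and 1.36 in AA-supplemented knockouts and at 1.49 and 1.41 in AA-deficient knockouts. The highest value was on an AA-deficient array, and the groups overlapped in each pair. Of the 4 enzymes other than regucalcin it had the largest difference between the knockouts, 0.056 (SE 0.048, limma adjusted p = 0.812), or 1.14-fold with an interval of 0.881 to 1.47. Of all genes tested, 37.0% had a larger absolute difference. Against wild type it differed by 0.045 (limma adjusted p = 0.665) without AA and by -0.011 (limma adjusted p = 0.966) with AA.

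**Figure D2:**
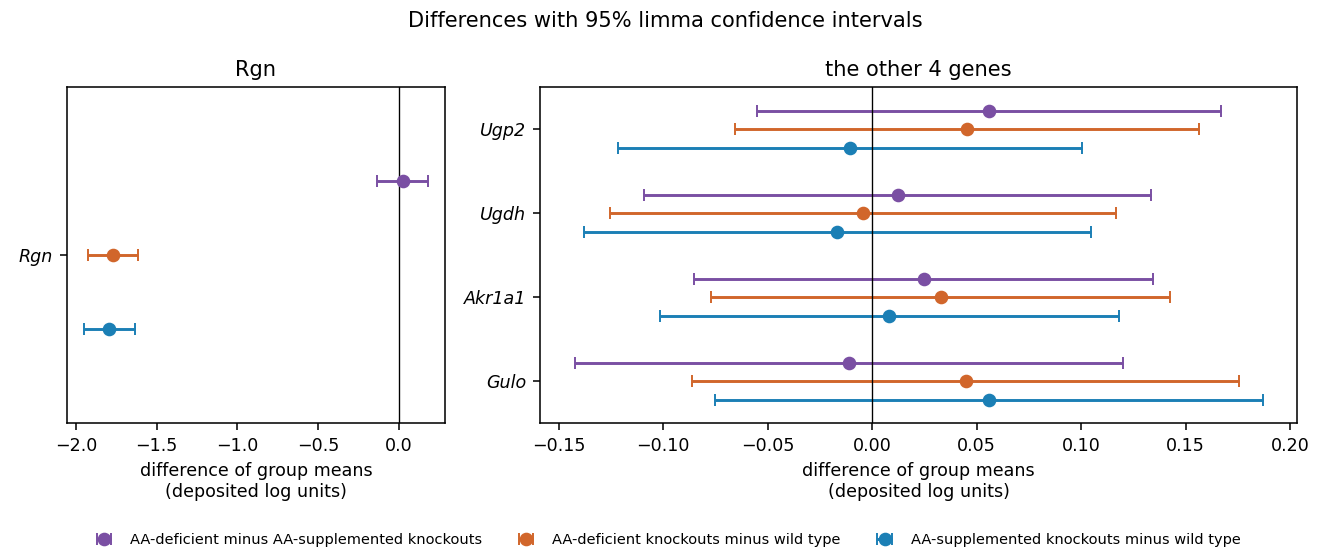
Difference of group means in deposited log units on the horizontal axis, with 95% limma confidence intervals as bars, for Rgn on the left and the other 4 genes on the right, on different horizontal scales. Colours mark the 3 comparisons. The Rgn intervals against wild type lie wholly below -1.61, and every interval of the other genes includes 0.

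For Gulo, Akr1a1, Ugdh and Ugp2, 0 of 4 had groups that did not overlap in any comparison. Over all genes tested, groups did not overlap for 37.3% between the knockouts, 54.5% without AA against wild type and 38.6% with AA against wild type.

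Although their group means were close, Gulo and Akr1a1 moved together from array to array. In AA-supplemented knockouts array 1 was below array 2 by 0.136 for Gulo and 0.070 for Akr1a1, while in wild type array 1 was above array 2 by 0.092 and 0.082. The Pearson correlation of both genes over the 6 arrays was 0.884, and that of their deviations from the group means was 0.962. Ugdh followed the same order of arrays within groups, with correlations of deviations of 0.771 with Gulo and 0.737 with Akr1a1. Ugp2 did not share it (-0.247 with Gulo). The 2 deviations of a group mirror each other, so these correlations of deviations rest on 1 difference in each of 3 groups. They do not show that the genes are regulated together.

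The hepatocyte markers had the same order within groups. Their mean over 10 genes was 2.11 and 2.26 on AA-supplemented arrays 1 and 2, 2.17 and 2.10 in wild type, and 2.16 and 2.15 in AA-deficient knockouts. Over the 6 arrays this mean correlated at 0.975 with Gulo, 0.790 with Akr1a1, 0.606 with Ugdh and -0.335 with Ugp2. These points share an array's RNA, labelling and scaling. On the deposited values the SE of the difference between the knockouts was 0.057 for Gulo and 0.048 for Akr1a1. It was 0.034 and 0.033 with quantile normalization, 0.035 and 0.033 with cyclic loess, and 0.053 and 0.048 with median centring. The SE of both genes thus depended on the scaling. Whether the makeup of the tissue, the RNA or the array moved the values of these genes was not tested. In bulk RNA fewer cells of a type and less RNA per cell cannot be told apart.

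**Figure D3:**
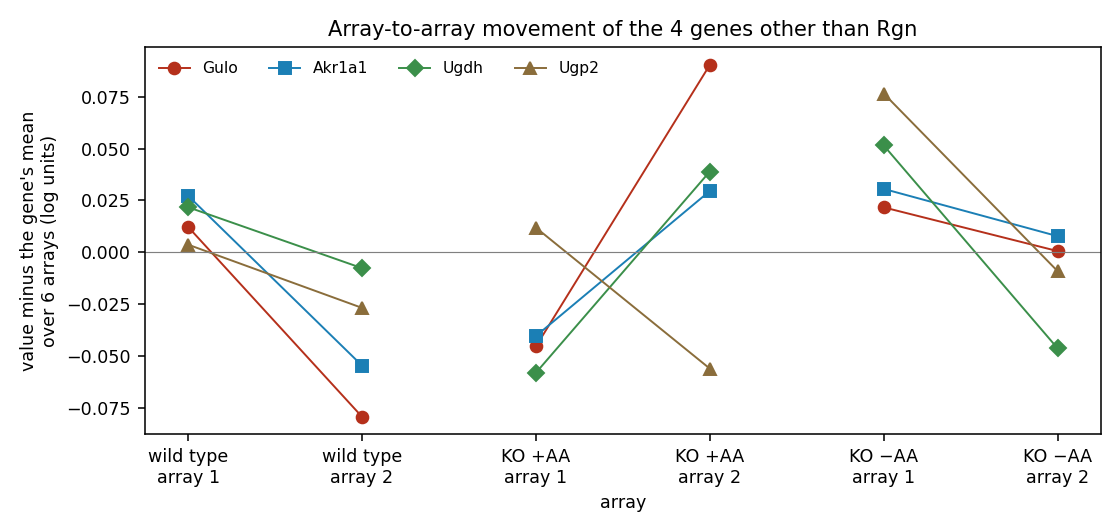
Value of each gene minus its mean over the 6 arrays (deposited log units, vertical axis) on each array (horizontal axis), with a line joining the arrays of a group. Gulo, Akr1a1 and Ugdh are lower on array 1 than on array 2 in AA-supplemented knockouts (KO +AA) and higher on array 1 in the other groups, whereas Ugp2 is higher on array 1 in all 3 groups.

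The genes whose values were most like those of Rgn over the 6 arrays were Tmem208, Mboat2 and Psph, the phosphoserine phosphatase of serine synthesis, with Pearson correlations of 0.996, 0.992 and 0.989. Their values were far less spread than those of Rgn. Psph was at 0.59 and 0.58 in wild type and between 0.27 and 0.32 on the 4 knockout arrays. Tmem208 was at 0.83 and 0.81 in wild type and between 0.68 and 0.71 in the knockouts. For Gulo they were Myo15, Apoc1 and Grina (0.993, 0.992 and 0.992). For Akr1a1 they were Msra, the methionine sulfoxide reductase, Slc23a3 and Clptm1 (0.993, 0.982 and 0.981). For Ugdh they were Ephx3, Cbr2 and Apol8 (0.996, 0.996 and 0.993), and for Ugp2 they were Gnb4, Akr1d1 and Ndufv3 (0.997, 0.979 and 0.975). With 6 arrays, between 46 and 362 genes correlated above 0.9 with each member, so these names only describe the shape of the values.

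Other genes around the route were examined as 4 lists, the last of them a list of the aldo-keto reductase family. Between the knockouts 0 of their members passed in limma. Of 10 tested genes of UDP-glucose supply and use, 0 passed in any comparison, with 1, 4 and 1 at an unadjusted p under 0.05 between the knockouts, without AA against wild type and with AA against wild type. Their median difference was 0.032, 0.077 and 0.038 in that order, against -0.0034 to 0.000031 over all genes tested. Against wild type without and with AA, medians were 0.068 and 0.076 for 5 periportal hepatocyte markers and 0.052 and 0.065 for 8 pericentral ones. For the 10 hepatocyte markers they were 0.024 and 0.050. A higher median against wild type was thus not particular to the UDP-glucose list. Within this list G6pc, the glucose-6-phosphatase of glucose release, was at 1.88 and 2.05 in AA-deficient and 1.52 and 1.82 in AA-supplemented knockouts (difference 0.29, SE 0.102, limma adjusted p = 0.378). The G6pc difference was 0.15 without AA-supplemented array 1 and 0.44 without array 2. Ugcg, which transfers glucose from UDP-glucose to ceramide, was at 0.80 and 0.80 in AA-deficient knockouts, 0.83 and 0.80 in AA-supplemented knockouts and 0.65 and 0.60 in wild type. Both knockout groups lay above wild type for Ugcg, with limma adjusted p of 0.0594 without AA and 0.194 with AA. The former passed under some other settings and missed the threshold under others.

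A list of genes around UDP-glucuronate held mostly UDP-glycosyltransferases. Not all of its members use UDP-glucuronate, since Gusb, for example, is a beta-glucuronidase. Of its 14 tested genes, 1 rose in AA-deficient knockouts against wild type, where 3.08% of all genes rose, and 0 fell. This was Ugt2b35, a glucuronosyltransferase, at 1.74 and 1.72 in AA-deficient knockouts, 1.54 and 1.59 in AA-supplemented knockouts and 1.35 and 1.37 in wild type. The 3 groups did not overlap, with the AA-supplemented arrays in between. Ugt2b35 rose by 0.37 (SE 0.041, 2.34-fold, limma adjusted p = 0.00743) without AA. With AA the difference from wild type was 0.20 (SE 0.041, limma adjusted p = 0.190), and between the knockouts it was 0.17 (SE 0.041, limma adjusted p = 0.204). Without wild-type array 1 the adjusted p of the rise was 0.113, and without wild-type array 2 it was 0.0737. The genes of this family are alike in sequence, and how far this probe set reads its relatives was not tested. The list had a median difference of 0.0042 in AA-deficient knockouts against wild type and single genes between -0.29 and 0.37, and 3, 2 and 1 of its genes had an unadjusted p under 0.05 in the order of comparisons given above. Its members did not share a direction. Between the knockouts Ugt2b37 (difference -0.36, SE 0.095, limma adjusted p = 0.226) and Ugt2b38 (difference -0.19, SE 0.053, limma adjusted p = 0.254), named after their values were seen, had the opposite sign to Ugt2b35.

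Of 3 tested genes that carry L-gulonate on to the pentose phosphate route, the branch that competes with regucalcin for L-gulonate, 0 passed in limma, with 1, 2 and 0 at an unadjusted p under 0.05 in the same order of comparisons. Xylb, the xylulokinase that ends this branch, was at 1.69 and 1.65 in AA-deficient knockouts, 1.56 and 1.63 in AA-supplemented knockouts and 1.51 and 1.49 in wild type (adjusted p = 0.0702 without AA and 0.492 with AA against wild type). The comparison without AA passed under some other settings and missed the threshold under others. Dcxr, the L-xylulose reductase, was at 1.56 and 1.52 in AA-deficient knockouts, above 1.43 and 1.41 in AA-supplemented knockouts (difference 0.12, SE 0.040, limma adjusted p = 0.347). Another 11 tested genes were aldo-keto reductases other than Akr1a1, listed by family and not for a step of the route. Of these, 0 passed in limma, with 1, 0 and 0 at an unadjusted p under 0.05. The smallest p between the knockouts belonged to Akr1c19 (difference 0.27, SE 0.087, limma adjusted p = 0.336; 0.16 without AA-supplemented array 2). The smallest against wild type with AA belonged to Akr1c13 (difference -0.11, SE 0.063, limma adjusted p = 0.601). It was -0.21 without AA-supplemented array 1 and -0.0080 without array 2.

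**Figure D4:**
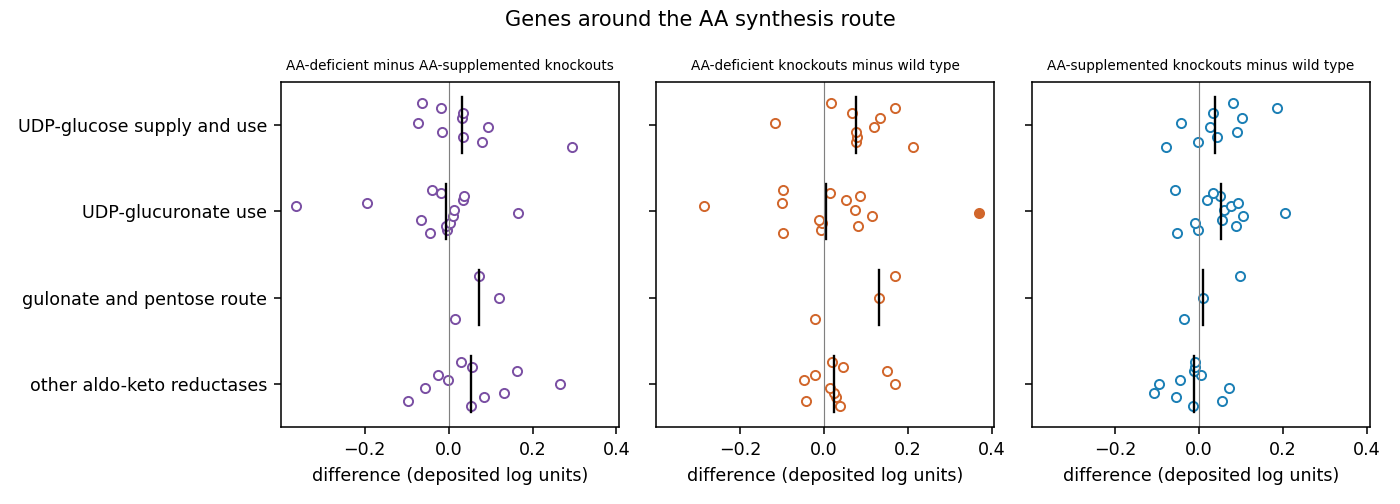
Differences of single genes (points, deposited log units) in 4 lists of genes around the AA route, with a panel for each comparison and a black line at each list's median. The single filled point is Ugt2b35, at 0.37 in AA-deficient knockouts against wild type, and open points did not pass the threshold.

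The loss of signal on the X chromosome was tested beyond Rgn in its 10 nearest tested genes on either side. Of these 20, 0 passed in any comparison in limma, and 2, 2 and 0 had an unadjusted p under 0.05 in the same order of comparisons. In the last comparison their differences lay between -0.111 and 0.087, against -1.79 for Rgn, and 12 of 20 were lower. The smallest p belonged to Elk1, an ETS transcription factor, in AA-deficient knockouts against wild type (difference -0.18, limma adjusted p = 0.0572). This Elk1 difference passed under some other settings and missed the threshold under others. The nearest gene on one side, Jade3, differed by -0.038 (SE 0.042) in that comparison, and the nearest on the other, Ndufb11, by -0.013 (SE 0.045).

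**Figure D5:**
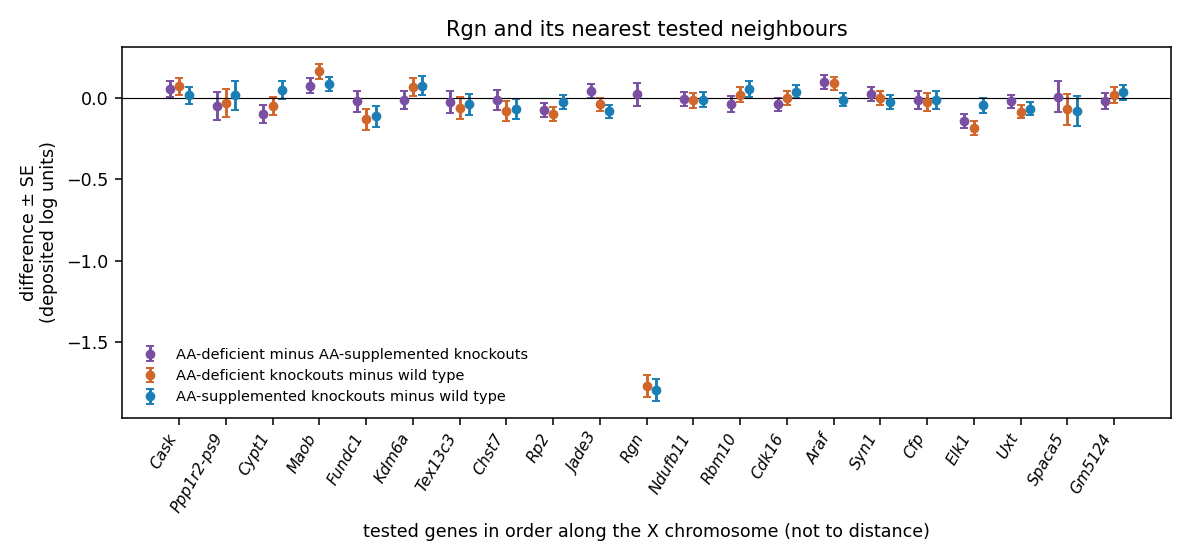
Difference of group means with its SE (deposited log units, vertical axis) for Rgn and the 10 nearest tested genes on either side, in their order along the X chromosome but not to distance. Rgn lies at -1.79 and -1.77 against wild type, while its neighbours lie between -0.183 and 0.165 in all 3 comparisons.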

How the data were processed

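The deposited table holds 1 value per probe set and array, taken as log10 values from their range. Per the labels' protocols, RNA was extracted with ISOGEN and labelled with the WT Terminal Labeling kit, while the labels do not name the software, normalisation, background step or log base behind the deposited values. Of 34760 probe sets, 3995 held no value and were left out. No detection call was used, so a low value cannot be told from background, and precision is limited by the 2 arrays a group.

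Of 30765 probe sets with a value, the platform annotation gave 21161 exactly 1 symbol, 1150 several and 8454 none. For 925 genes with several probe sets the one of highest mean was taken. The test left out genes whose mean was under the 25th percentile (0.185) and kept 14662. The model was fitted in R 4.3.3 by limma 3.58.1 with lmFit, contrasts.fit and eBayes over all 6 arrays (residual degrees of freedom 3, prior 4.89). Tests are two-sided, and the fit was tested on simulated data. RefSeq's gene table (GRCm38.p6) gave chromosomes and the order of genes on the X chromosome only. No sequence is shown and no coordinates are given.

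The members and lists were chosen with earlier results of these data known. Named beside the members were list genes past the threshold (at most 4 a list, or 3 for cell markers) or, with none, the one of smallest p in a comparison, the X chromosome neighbour of smallest p, and for each member the 3 genes of highest Pearson correlation, without predicted genes, clones, olfactory and vomeronasal receptors and small RNAs. Jade3 and Ndufb11 were added as the nearest neighbours, Sult1e1 and Nrg4 as the next largest differences. Alternatives covered the filter, normalisation, eBayes options, arrays in the fit, a replicate block, the choice of probe sets and leaving out each array.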

Additional observations from a re-analysis of the deposited data

How the results depend on the processing

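Under 17 other settings and 1 more chosen after seeing the data, the 2 Rgn differences from wild type passed in limma every time. Without single arrays they ran from -1.89 to -1.69 in AA-supplemented and from -1.81 to -1.73 in AA-deficient knockouts, and their adjusted p went up to 0.0085 and 0.00923. The other 13 differences of the members passed under 0 of them, and 11 of them changed sign under at least 1. The exceptions were Ugp2 between the knockouts and in AA-deficient knockouts against wild type. Another scaling moved the median difference of all genes by at most 0.0034.

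The share of all genes past the threshold depended far more on the setting. Between the knockouts 30 genes passed, against 0 to 177 under the other settings, and without single arrays 0 to 46. In AA-deficient knockouts against wild type 679 passed, against 1 (Rgn) without either wild-type array, 140 and 88 without AA-deficient arrays 1 and 2, 1031 without either AA-supplemented array and 1312 with a trend and robust fit. In AA-supplemented knockouts against wild type 1 passed, against 8 with median centring, 7 without AA-supplemented array 1, 94 with a trend and 116 with a trend and robust fit.

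With a replicate block, the number of calls was 4, 163 and 3 in this order of comparisons, and 0, 1 and 1 member passed as before. Arrays of the same number deviated together at r = 0.358 between AA-deficient knockouts and wild type, and at -0.369 and -0.284 between these groups and AA-supplemented knockouts. What arrays of the same number share beyond it cannot be told with 2 arrays a group. With the numbers of the AA-supplemented arrays exchanged, 75, 1561 and 1 genes passed. Against wild type without AA, Elk1, Ugcg and Xylb passed with a filter at the 50th percentile (adjusted p of 0.0295, 0.0295 and 0.0379), with a trend, with a trend and robust fit, without either AA-supplemented array and with the exchanged numbers, and Ugcg also with cyclic loess (0.0491). Ugt2b35 in AA-deficient knockouts lost its call without either wild-type array. Between the knockouts it passed with a trend and robust fit (adjusted p = 0.0395), and in AA-supplemented knockouts against wild type with a trend (0.0361) and with a trend and robust fit (0.0256).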

Other observations

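Among the marker lists of liver cell types and zones, 3 of 51 tested genes (5.88%) rose and 0 fell in AA-deficient knockouts against wild type. Of all genes tested, 3.08% rose and 4.63% passed in either direction. With 3 genes, no difference from these shares is claimed. Lgr5, a Wnt target of pericentral hepatocytes, was at 0.66 and 0.64 against 0.36 and 0.27 in wild type (difference 0.34, SE 0.052, limma adjusted p = 0.0187). Its wild-type mean of 0.31 lay within the olfactory receptor range described above, -0.21 to 0.51 in wild type, so that signal cannot be told from background. The other pericentral markers did not pass. Of the 8 listed, 7 were higher, among them Axin2 by 0.015 and Glul by 0.012, and 1 was lower, Rhbg by -0.021. Stab2, a scavenger receptor of sinusoidal endothelium, was at 1.09 and 1.11 against 0.81 and 0.90 (difference 0.24, SE 0.045, limma adjusted p = 0.0320). The other endothelial markers did not pass, and 5 of 7 were higher and 2 lower, Clec4g by -0.073 and Pecam1 by -0.068. Hal, the histidine ammonia-lyase of periportal hepatocytes, was at 2.09 and 2.07 against 1.83 and 1.91 (difference 0.21, SE 0.044, limma adjusted p = 0.0432). The other periportal markers did not pass. All 5 with a value, of 8 listed, were higher, Cdh1 by 0.23 (limma adjusted p = 0.0655). Each of these calls was lost without any single AA-deficient or wild-type array and with the replicate block (adjusted p of 0.0549, 0.0716 and 0.0974).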
